A study of Mus musculus with 8 samples.

Results

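Chemokines are small secreted proteins that draw leukocytes along a gradient, and 10 of their genes, Ccl2, Ccl3, Ccl4, Ccl5, Ccl6, Ccl7, Ccl9, Ccl12, Cxcl2 and Cxcl10, are described here in mouse osteoclast cultures. They were taken as a list of symbols and matched by Ensembl identifier, which found 10 of 10 among the 46517 genes measured. All 10 passed the filter on low values (10 or more normalized counts in 4 or more libraries), as 14139 genes did. Osteoclasts are the multinucleated cells that degrade bone. They were grown in 8 cultures, 1 per mouse, and the mRNA of each was sequenced as 1 library of 75 bp paired-end reads. The 4 Elmo1-/- mice lack ELMO1, an adaptor protein that acts with DOCK proteins on the GTPase Rac, in every cell and not only in osteoclasts. The 4 control mice were Elmo1+/-, which keep 1 intact copy. The sample titles call the controls WT, and the genotype label is followed here. All mice were 6 to 8 weeks old. Marrow from the femurs of both genotypes was cultured with 10% medium conditioned by L929 cells, a source of M-CSF. The attached cells were then replated and cultured with GST-RANKL at 50 ng/ml for 7 days. The question put to these data was whether the chemokine transcripts differ between cultures without ELMO1 and their controls.

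Chemokines act through G protein-coupled receptors, and a receptor usually reads several of them. CCL2, CCL7 and CCL12 are ligands of CCR2 and recruit monocytes, CCL3, CCL4 and CCL5 draw monocytes and T cells, and CCL3, CCL5, CCL6 and CCL9 bind CCR1. CXCL2 recruits neutrophils through CXCR2, and CXCL10 is an interferon-inducible ligand of CXCR3 on activated T cells. RANKL induces CCL9 in mouse osteoclasts, which also carry its receptor CCR1, and osteoclast precursors respond to several of these ligands.

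Between 20905502 and 40846651 reads per library fell on genes. Elmo1 itself lay at a normalized count of 1593 ± 150.3 (SD, n = 4) in Elmo1+/- and 292 ± 17.6 (SD, n = 4) in Elmo1-/- cultures, a log2 difference of -2.44. The first principal component, with 62.3% of the variance, set mice 1 and 2 of both genotypes apart from mice 3 and 4. The study used 2 mice per genotype in each of 2 experiments, and which mice shared one is not given. The summed osteoclast markers (10 genes, among them Acp5, Ctsk and Mmp9) were between 450909 and 692445 normalized counts in libraries 1 and 2 and between 1029110 and 1173010 in libraries 3 and 4, with the lowest sum in Elmo1-/- mouse 1. Macrophage markers were abundant in every library, with sums of 8 genes between 363214 and 460775, so a chemokine transcript in these bulk samples cannot be assigned to one of these cell types. Of the T cell markers Cd3g had 0 reads in all 8 libraries and Cd3d and Cd3e at most 3.78 and 0.946 normalized counts, while Trac ran from 6.62 to 70.4. Of the B cell markers Ms4a1 reached at most 2.76, while Cd79b ran from 157 to 409. The dendritic cell list summed to between 199.6 and 549.7, mostly from Itgax (167 to 467), with Cd209a at 0 reads in all libraries. The summed markers of neutrophils ran from 10346 to 22561, mostly from S100a8 (8539 to 17708) and S100a9 (490 to 4039). Of the other neutrophil markers Ngp ran from 164 to 964 and Camp from 53.3 to 140, and Ly6g reached at most 10.4. The summed markers of stroma ran from 539.9 to 1280.4, of endothelium from 423 to 658 and of mast cells or basophils from 19.8 to 37.8. In bulk RNA, fewer cells of a type and less RNA per cell cannot be told apart.

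The 10 chemokines spanned a 60.2-fold range of levels. Compared per length, as normalized counts per kb of exon, Ccl6 stood highest with 18567 ± 3516 (SD, n = 8), followed by Ccl2 with 15282 ± 1632, Ccl9 with 13879 ± 1494, Ccl3 with 12449 ± 1573 and Ccl7 with 12418 ± 1124. Ccl12 with 5204 ± 2149 and Ccl4 with 4301 ± 695 formed a middle tier. Cxcl2 with 1625 ± 517, Ccl5 with 1441 ± 663 and Cxcl10 with 308 ± 104 per kb were lowest. Only 3 steps of this order held in 8 of 8 libraries, namely those from Ccl7 down to Ccl12, from Ccl4 down to Cxcl2 and from Ccl5 down to Cxcl10. The other neighbours changed places in at least 1 library, and Ccl3 exceeded Ccl7 in only 3 of 8. With the longest transcript in place of all exons Ccl6 reached 23144 per kb and Ccl5 passed Cxcl2. The 10 genes together took 0.367% to 0.419% of the reads on genes, with 0.388% ± 0.0234 (SD, n = 4) in Elmo1+/- and 0.387% ± 0.0150 (SD, n = 4) in Elmo1-/- cultures (exact two-sided permutation test, p = 0.914). Ccl6 and Ccl9 alone supplied 59.3% to 65.0% of the reads of these 10 genes, a share that leaves out all other chemokines.

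**Figure D1:**
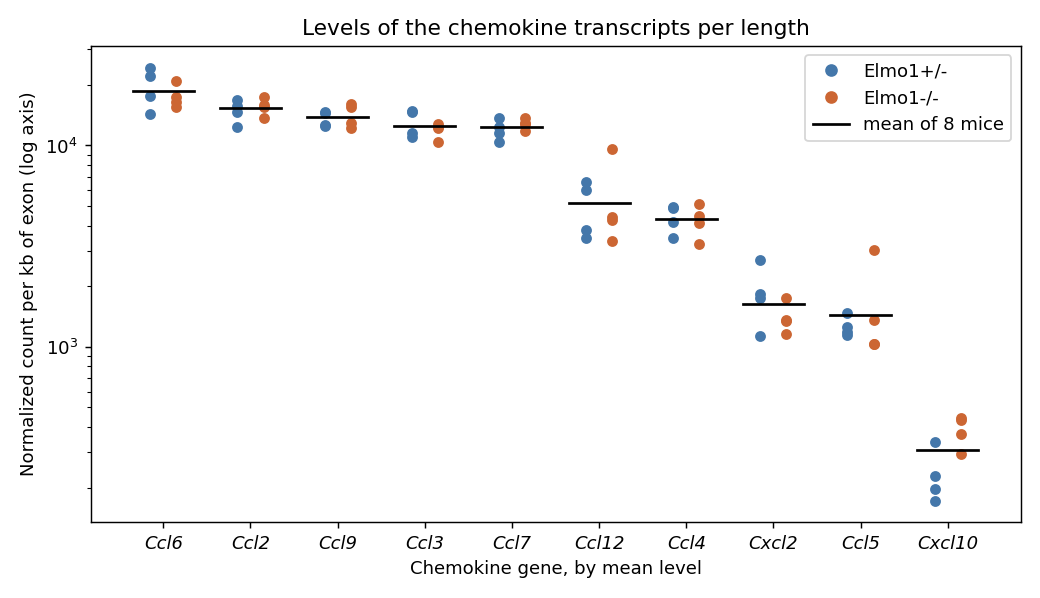
Levels of the 10 chemokine transcripts, as normalized count per kb of exon on a log axis, 1 point per mouse and a line at the mean of 8 mice. All points of Ccl6, Ccl2, Ccl9, Ccl3 and Ccl7 lie between 10435 and 24374 per kb, and every Cxcl10 point (172 to 444) lies below every Ccl5 point (1033 to 3038).

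No chemokine passed the threshold between the genotypes. By limma with Benjamini-Hochberg adjustment over the 14139 genes, 0 of 10 were called at 0.05 beside 1 gene of all (0.00707%), which was Elmo1. On the recovered reads edgeR called only Elmo1 as well, and DESeq2 called Elmo1 and Gpr137b-ps, so no gene of the lists below was called by either. At an unadjusted p under 0.05 there was 1 of 10, Cxcl10, where 0.941% of all genes were. For 0 of 10 were the genotypes free of overlap, against 0.941% of all genes. The log2 difference, Elmo1-/- minus Elmo1+/-, was positive for 6 and negative for 4 chemokines, with a median of 0.06 beside -0.003 for all genes tested. Cxcl10 and Cxcl2 had the largest differences, in opposite directions. Each adjusted p was 0.9999 in this test.

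**Figure D2:**
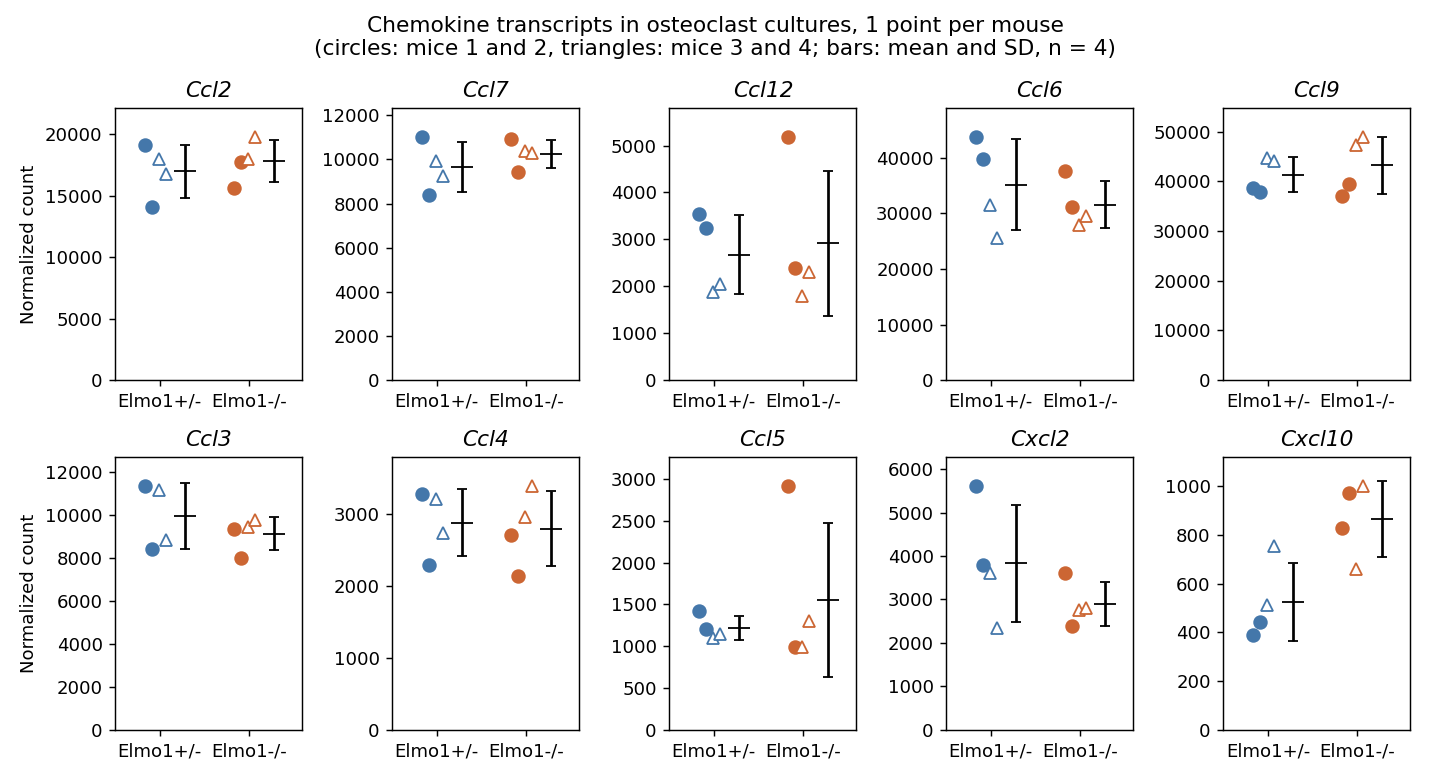
Normalized counts of the 10 chemokines, 1 point per mouse, by genotype (blue Elmo1+/-, orange Elmo1-/-), with the mean and SD of 4 mice beside the points. Circles are mice 1 and 2 and triangles mice 3 and 4, and in every panel the genotypes overlap. Elmo1-/- mouse 1 stands alone at 2917 for Ccl5 and 5187 for Ccl12.

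Ccl2, Ccl7 and Ccl12, the ligands of CCR2, lie in this order on the plus strand within 67.8 kb of chromosome 11 (82035571 to 82103400, GRCm38). For Ccl2, Elmo1+/- cultures 1 to 4 held 19141, 14062, 17962 and 16752 normalized counts, and Elmo1-/- cultures 1 to 4 held 15667, 17723, 18027 and 19796. Neither genotype stood apart, and the log2 difference was 0.07 (SE 0.11), with a 95% interval of the fold from 0.880 to 1.26. Ccl7 was as even, at 11023, 8368, 9934 and 9265 in the controls and 10935, 9407, 10377 and 10266 without ELMO1. Its fold was 1.07, with an interval from 0.917 to 1.24. The ratio of Ccl2 to Ccl7 stayed between 1.43 and 1.93 across the mice, with the highest 1.35 times the lowest. This closeness was not particular to neighbours. For Ccl2 with Ccl9 and Ccl3 with Ccl7, which do not lie in the same cluster, the highest ratio was 1.34 and 1.32 times the lowest.

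Ccl12 did not follow its neighbours. The controls held 3539, 3245, 1871 and 2039.6 normalized counts of it, and the cultures without ELMO1 held 5187, 2383, 1793 and 2299.5, each in the order of mice 1 to 4. Elmo1-/- mouse 1 was the highest library, 1.47 times the next. All 4 libraries numbered 1 and 2 lay above all 4 numbered 3 and 4, with means of 3588 and 2001, which was so for 1 of 10 chemokines and 15.8% of all genes. The osteoclast marker sum was lower in each of libraries 1 and 2, and its part in the result was not tested. The ratio of Ccl2 to Ccl12 ran from 3.02 to 7.44 in libraries 1 and 2 and from 8.21 to 10.1 in libraries 3 and 4. The log2 difference of Ccl12 between genotypes was 0.05 (SE 0.34), and without Elmo1-/- mouse 1 it was -0.26.

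The second cluster on chromosome 11, 138.9 kb long (83525778 to 83664683), holds Ccl5, Ccl9, Ccl6 and Ccl3 on the minus strand and Ccl4 on the plus strand. Ccl6 and Ccl9, ligands of CCR1, had the highest counts of the 10 chemokines. For Ccl6 the controls gave 43752, 39674, 31438 and 25613 normalized counts and the cultures without ELMO1 gave 37563, 31188, 27866 and 29527. It was highest in a control mouse and lowest in another, and the fold of 0.911 had an interval from 0.694 to 1.20. For Ccl9 they gave 38621, 37916, 44632 and 44138 against 37119.8, 39496, 47222 and 48958. Here all libraries numbered 1 and 2 lay below all numbered 3 and 4, with means of 38288 and 46237, for 1 of 10 chemokines and 18.1% of all genes. Between genotypes Ccl9 had a fold of 1.04, with an interval from 0.869 to 1.25.

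Ccl6 and Ccl9 are neighbours, yet their means lay in opposite order by library number. Ccl6 had means of 38044 in libraries 1 and 2 and 28611 in libraries 3 and 4, with some overlap. The ratio of Ccl6 to Ccl9 was 0.790 to 1.13 in libraries 1 and 2 and 0.580 to 0.704 in libraries 3 and 4. For 10 of 10 osteoclast markers, too, all libraries numbered 3 and 4 lay above all numbered 1 and 2, as for 18.1% of all genes. Whether that bears on the ratio was not tested.

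Promoter sequence, from RefSeq on GRCm38.p6, was at hand for 6 of the 10 chemokines. The windows shown, except that of Cxcl2, end 1 base before the RefSeq transcript start. All read 5′ to 3′ on the gene's strand. They are printed for Ccl9, Ccl12, Cxcl10 and Cxcl2, while those of Ccl3 and Ccl6 were read but are not printed. Capitals mark matches on either strand to an interferon-stimulated response element core (ISRE, GAAANNGAAA), an AP-1 site (TGANTCA) or the consensus of NF-kB (kappaB). In the 250 bases before the start of 32851 promoters, 2.98% hold the first, 6.75% the second and 7.25% the third. Ccl9 (chr11:83578637-83578886, minus strand) holds an AP-1 match 53 to 47 bases and a kappaB match 35 to 26 bases before its start. Ccl12 (chr11:82101595-82101844, plus strand) has no match in its window, and Ccl3 and Ccl6 have none in theirs.
Ccl9: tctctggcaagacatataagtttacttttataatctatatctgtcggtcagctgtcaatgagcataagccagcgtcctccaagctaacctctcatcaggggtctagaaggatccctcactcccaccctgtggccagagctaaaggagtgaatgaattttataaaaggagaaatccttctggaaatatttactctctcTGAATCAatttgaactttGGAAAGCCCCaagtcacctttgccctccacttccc
Ccl12: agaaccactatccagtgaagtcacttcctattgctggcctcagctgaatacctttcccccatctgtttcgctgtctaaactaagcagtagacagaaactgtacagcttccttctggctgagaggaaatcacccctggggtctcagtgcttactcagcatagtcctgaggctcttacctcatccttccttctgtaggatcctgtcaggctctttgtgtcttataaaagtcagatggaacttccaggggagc

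Ccl3, Ccl4 and Ccl5 attract monocytes and T cells. Control cultures 1 to 4 held 11342, 8406, 11174 and 8856 normalized counts of Ccl3, and those without ELMO1 held 9340.0, 7993, 9428 and 9747. Ccl4, which lies beside it on the opposite strand, had 3279.5, 2289, 3216 and 2739 in the controls and 2710.3, 2136, 2953 and 3388 without ELMO1. These neighbours were the closest pair of the 10 chemokines, with a root mean square difference of 0.114 between their log2 values, each centred on its own mean. The ratio of Ccl3 to Ccl4 stayed between 2.88 and 3.74, and both were lowest in Elmo1-/- mouse 2. Their genotype folds were 0.923 (interval 0.765 to 1.11) and 0.967 (interval 0.752 to 1.24).

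Ccl5, made by many activated leukocytes, had the widest range of the 10, at 2.94-fold from lowest to highest library. Its SD on the log2 scale, 0.504, was below those of Ccl12 (0.531) and Cxcl10 (0.516). The Elmo1+/- cultures held 1420.0, 1207, 1096 and 1141 normalized counts, and the Elmo1-/- cultures 2917, 996, 992 and 1298. Elmo1-/- mouse 1 lay at 2.05 times the next highest library, while Elmo1-/- mice 2 and 3 lay below all controls and Elmo1-/- mouse 4 lay within their range. The log2 difference between genotypes was 0.20 (SE 0.31) with this mouse and -0.16 without it. Elmo1-/- mouse 1 was the highest library for 2 of 10 chemokines, Ccl5 and Ccl12, and for 27.1% of all genes.

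Cxcl2, the neutrophil attractant, lies on chromosome 5 (90903871 to 90905938, plus strand) and gave 5606, 3788, 3607 and 2334 normalized counts in the controls. The cultures without ELMO1 gave 3598, 2393, 2764 and 2799. The Elmo1-/- values were lower in 3 of 4 same-numbered pairs, and the highest and the lowest library were both controls. The log2 difference was -0.36 (SE 0.24), a fold of 0.781 with an interval from 0.535 to 1.14 (exact two-sided permutation test, p = 0.286). It ranged from -0.57 without Elmo1+/- mouse 4 to -0.15 without Elmo1+/- mouse 1. Among mice 1 and 2 alone the difference was -0.65, and among mice 3 and 4 it was -0.06. Of the 75-base windows of its transcripts, 101 of 2209 (4.57%) also occur in Cxcl3, so a small part of its reads could be shared.

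Cxcl10 (chromosome 5, 92346638 to 92348889, minus strand) was the chemokine with the largest genotype difference and the lowest level. Control mice 1 to 4 gave 388, 443, 512 and 755 normalized counts, a mean of 524 ± 162 (SD, n = 4). Their Elmo1-/- counterparts gave 829, 971, 659 and 999.6, a mean of 864 ± 156 (SD, n = 4). The genotypes overlapped in 1 place, where control mouse 4 lay above Elmo1-/- mouse 3, and Elmo1-/- was higher in 4 of 4 same-numbered pairs, as for 4.70% of all genes. The fold was 1.68, with an interval from 1.20 to 2.35 that takes no account of the number of genes tested. The log2 difference of 0.75 (SE 0.21) had an unadjusted p of 0.00678 and an adjusted p of 0.9999 by limma with Benjamini-Hochberg adjustment. An exact two-sided permutation test gave p = 0.0571, where 4 mice against 4 allow no less than 0.0286. The difference was 1.11 among mice 1 and 2 and 0.38 among mice 3 and 4, and these 2 values were not tested against each other. It stayed positive, between 0.62 and 0.94, with each mouse left out in turn. The study lists Cxcl10 from these same samples, so its direction here is not independent evidence. Its exons overlap Art3, and 59 of its 2393 75-base windows (2.47%) occur there too.

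**Figure D3:**
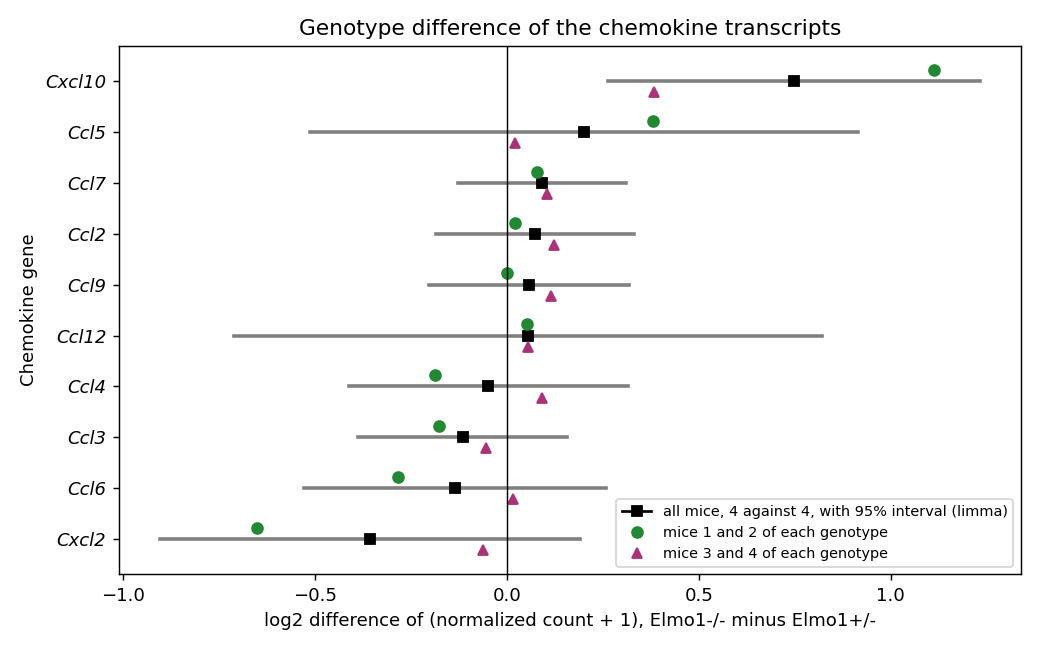
Log2 difference of (normalized count + 1), Elmo1-/- minus Elmo1+/-, for each chemokine: squares with lines are all 4 against 4 mice with the 95% interval from limma, green circles mice 1 and 2 and purple triangles mice 3 and 4 of each genotype. Cxcl10 (0.75, interval 0.26 to 1.23) is the only interval that leaves out 0, and Cxcl2 lies lowest at -0.36.

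Of the 6 promoter windows read, that of Cxcl10 holds the most matches. Cxcl10 (chr5:92348890-92349139, minus strand) has an ISRE core 213 to 204 bases before its start, kappaB matches at 159 to 150 and, overlapping each other, at 104 to 95 and 103 to 94 bases, and an AP-1 match at 74 to 68 bases. Cxcl2 (chr5:90903649-90903870, plus strand, 222 bases) has overlapping kappaB matches on opposite strands, at 97 to 88 and 96 to 87 bases before its RefSeq start. That start lies inside the annotated gene. The sequence printed for Cxcl2 stops short of it, 1 base before the annotated gene begins, so the positions do not count from its end. A match is a description of letters and was not tested for binding.
Cxcl10: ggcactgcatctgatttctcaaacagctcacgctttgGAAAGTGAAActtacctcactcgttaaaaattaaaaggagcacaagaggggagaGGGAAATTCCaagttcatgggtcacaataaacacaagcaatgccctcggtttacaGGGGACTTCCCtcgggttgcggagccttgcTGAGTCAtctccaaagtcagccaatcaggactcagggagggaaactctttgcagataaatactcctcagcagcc
Cxcl2: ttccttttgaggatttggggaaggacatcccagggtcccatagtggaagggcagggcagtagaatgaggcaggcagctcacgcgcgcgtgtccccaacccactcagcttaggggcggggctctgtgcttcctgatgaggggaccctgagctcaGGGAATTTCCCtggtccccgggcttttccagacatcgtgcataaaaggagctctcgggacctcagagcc

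The chemokines differed in their spread over the 8 libraries. Ccl2, Ccl3, Ccl4, Ccl7 and Ccl9 differed by 1.32-fold to 1.59-fold between lowest and highest library and Ccl6 by 1.71-fold. Cxcl2 differed by 2.40-fold, Cxcl10 by 2.58-fold, Ccl12 by 2.89-fold and Ccl5 by 2.94-fold. For the members with an SD over 0.5 on the log2 scale, the tested genes of most similar pattern were sought, by the root mean square difference of centred log2 values over the 8 libraries. Ccl12 was matched most closely by Bst2 (0.0676), the antiviral membrane protein tetherin, then by the non-classical class I gene H2-T23 (0.0736) and by Dhrs3 (0.0982), a retinaldehyde reductase. Bst2, like Ccl12, was highest in Elmo1-/- mouse 1, at 24357. The lowest library was Elmo1+/- mouse 3 for Bst2, at 8673, and Elmo1-/- mouse 3 for Ccl12, at 1793. Ccl5 was nearest to Ddit3 (0.130), which encodes the stress factor CHOP, to BC051226 (0.148) and to H2-T22 (0.189). H2-T22 and H2-T23 belong to a family of related genes whose reads can be hard to assign, which was not checked for these genes. Cxcl10 was nearest to the interferon-induced Gbp5 (0.158) and Ifit2 (0.233) and to Vcam1 (0.263), an adhesion molecule. Gbp5 had 88.3, 94.9, 143 and 156 in Elmo1+/- and 184, 181, 138 and 211 in Elmo1-/- mice. These likenesses describe 8 libraries that share library numbers and genotype, and carry no test. Cxcl2 and Cxcl10 were the pair of chemokines least alike, with a difference of 0.83.

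**Figure D4:**
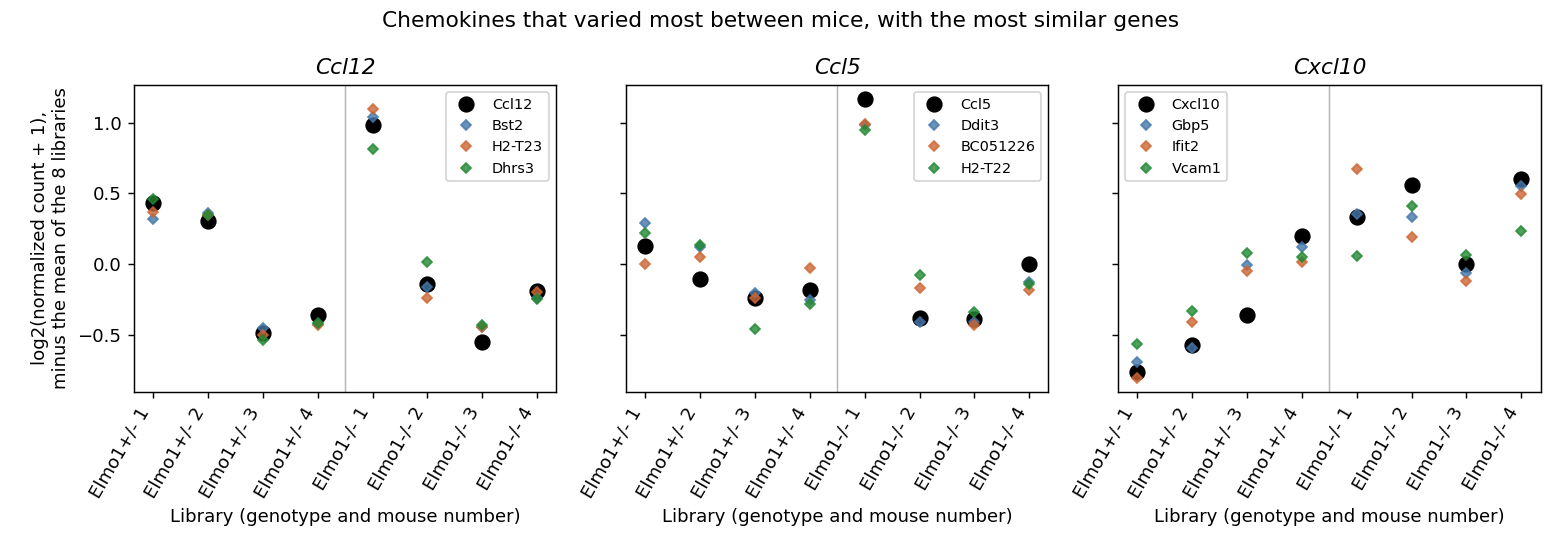
Ccl12, Ccl5 and Cxcl10 (black circles) and the 3 most similar genes of each (coloured diamonds), as log2(normalized count + 1) minus the mean of the 8 libraries. Ccl12 and Ccl5 and their companions peak in Elmo1-/- mouse 1 (5187 and 2917 normalized counts), while Cxcl10 is lowest in Elmo1+/- mouse 1 (388).

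Of 30 other chemokine genes listed, 29 were found and 14 passed the filter. By limma 0 of these 14 were called (1 of 14, Cxcl13, at an unadjusted p under 0.05), 9 had a positive and 5 a negative log2 difference, and the median was 0.08. Pf4, better known from platelets, was the highest at 34992 ± 3202 (SD, n = 8) normalized counts per kb, above each of the 10 chemokines, and Cxcl16 (2775 ± 469), Ppbp (1674 ± 456) and Cxcl3 (1554 ± 256) came next. Cxcl13, a B cell attractant that the study lists from these samples, had 588, 932, 676 and 791 in Elmo1+/- mice and 1503, 1165, 811 and 980.2 in Elmo1-/- mice. Its log2 difference was 0.56 (SE 0.20), with an exact two-sided permutation p = 0.0571 and some overlap between the groups. Below 10 in every library were 13 of the 29, and 5 of these had 0 reads in all libraries, which allows up to 3 reads in each.

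Among the receptors of these ligands, 8 of 8 genes were found, 6 passed the filter and 0 were called (0 also at an unadjusted p under 0.05), with 2 positive and 4 negative differences. Ccr1, the receptor of Ccl9 and Ccl6, led with 2763 ± 1030 normalized counts per kb, far above Ccr3 (226 ± 53.2) and Cxcr3 (45.4 ± 17.6). The controls held 6099, 5408, 10823 and 9616 normalized counts of it and the cultures without ELMO1 held 3529, 5826, 10511 and 10810.0. Ccr1 was thus lowest in Elmo1-/- mouse 1 and had a log2 difference between genotypes of -0.14 (SE 0.38). Ccr2, through which Ccl2, Ccl7 and Ccl12 act, had only 31.7 to 109 normalized counts.

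Genes of the pathways known to drive chemokine transcription were counted as well. Of 10 targets of NF-kB, such as Nfkbia, Birc3, Nfkb2 and Tnf, 6 had a positive and 4 a negative difference, with a median log2 of 0.02, and 0 were called (0 also at an unadjusted p under 0.05). Of 23 interferon pathway genes, which include Cxcl9 and Cxcl11, 20 passed the filter, 0 were called and 20 of 20 had a positive difference, with a median of 0.34, where 6838 of all 14139 genes were positive. At an unadjusted p under 0.05 there were 4 of these 20, beside 0.941% of all genes. Elmo1-/- mouse 1 was the highest library for 18 of the 20, beside 27.1% of all genes, and the summed list reached 118847 in it against 47970 to 66513 in the other 7 libraries. Without that mouse the median was 0.14, with 17 of 20 positive, and the same mouse was the one highest for Ccl5 and Ccl12. Bst2, at 14002 ± 5996 normalized counts per kb, Isg15 (3106 ± 1346), Irf7 (2403 ± 1875) and Oas1a (2312 ± 753) had the highest levels of the list. Of 5 proteases known to trim chemokines, 4 passed the filter and 0 were called (0 also at an unadjusted p under 0.05), with 3 positive differences. Mmp9, the main gelatinase of osteoclasts, stood at 116638 ± 27033 normalized counts per kb.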

How the data were processed

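RNA-seq libraries of osteoclast cultures from 4 Elmo1-/- and 4 Elmo1+/- mice were used, 1 per mouse, so p-values measure the spread between mice. That spread takes in any difference between experiments or library sets, as the main tests used no block. Per the submitters' processing notes the authors used FastQC, STAR, featureCounts and DESeq2 on reads from an Illumina NextSeq 500, and for these the version, genome build, annotation and strand setting were not given in the sources used here. A table that the authors deposited gives, for 46517 genes, a normalized signal (reads of a gene over the size factor of its library). The authors' own comparison columns (base mean, log2 fold change, SE, statistic, p-values) were not used. Divided by the value of a single read, 100% of values came out whole (tolerance 0.01 read).

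Symbols and exons came from GENCODE mouse release 21 (GRCm38), which named 46005 of the genes and not 512. Differences were tested with limma 3.58.1 in R 4.3.3 (with a trend, robust) over 14139 genes on log2(normalized count + 1), adjusted by Benjamini-Hochberg and called under 0.05, so folds understate changes of low genes. Single genes were also tested by exact two-sided permutation over the 70 arrangements of 4 and 4 mice. Alternatives were edgeR 4.0.16 and DESeq2 1.42.0 on recovered reads, other scalings, filters and pseudocounts, a replicate block, a term for the library set, and leaving out each mouse. The fit was also run on simulated data that held no difference between library sets, and nothing here rests on its outcome. The deviations of same-numbered libraries from their genotype means had correlations across genes of 0.703, 0.156, 0.598 and 0.520 for numbers 1 to 4. Libraries of different numbers were not compared in this way, so pairing by number is not shown. What the numbers stand for is not given.

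The genes named were the 10 chemokines, Elmo1, up to 4 genes of highest level per kb in each other list (other chemokines, receptors, NF-kB targets, interferon pathway, proteases, cell markers), any gene past a threshold, Cxcl13 and Cxcl10, and the 3 genes most similar to each chemokine with a log2 SD over 0.5. The members and lists were chosen with earlier results of these data known. Ccr2, Ccl8, Ccl22, Cxcr2 and Ly6g were named after their values were seen. Some genes of the lists are not reported here. Python 3.11.15, pandas 2.3.3, numpy 2.4.6, scipy 1.17.1 and matplotlib 3.10.9 were used.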

Additional observations from a re-analysis of the deposited data

Results flagged for a closer look

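Within each genotype, a mouse was marked where its gap to the nearest other mouse, divided by the range of the 4, was above Dixon's 95% critical value. Among 60 groups of 4 mice (30 chemokine and receptor genes) 4 were marked, where chance gives about 3. Ccl5 was marked in Elmo1-/- mouse 1, at a normalized count of 2917 and a gap of 0.841 of the range. Ccl8, another chemokine, was marked in the same mouse, at 942 and a gap of 0.917. Cxcr2, the receptor of Cxcl2, was marked in that mouse too, at 57.7 and a gap of 0.880. Ccl22 was marked in Elmo1+/- mouse 3, at 236 and a gap of 0.834. Elmo1-/- mouse 1 had the lowest osteoclast marker sum (450909) and the highest interferon list sum (118847) of the 8 libraries, and their part in these values was not tested.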

How the results depend on the processing

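The call of 0 chemokines of 10 held under all 18 alternatives, with adjusted p between 0.937 and 0.999999, and 0 of the other chemokines and of the receptors were called under any of them. The count of all genes called was 1 by limma and by edgeR and 2 with DESeq2 on the recovered reads, which added Gpr137b-ps, and it ran from 1 to 2 with 1 mouse left out, with 2 without Elmo1+/- mouse 2. With the replicate number as a block 1 gene was called, Elmo1, and 389 genes against 133 had an unadjusted p under 0.05, while Cxcl10 kept its log2 difference of 0.75 (unadjusted p = 0.0017 by limma with the block, adjusted p = 0.9998), and the block changed no call. Leaving out 1 mouse moved the log2 differences of Ccl2 between -0.015 and 0.133, of Ccl4 between -0.153 and 0.075, of Ccl5 between -0.16 and 0.36, of Ccl9 between -0.0053 and 0.128 and of Ccl12 between -0.26 and 0.25, so the sign of each of these 5 turned with at least 1 mouse. For Ccl5 and Ccl12 the lowest value came without Elmo1-/- mouse 1. Ccl3, Ccl6, Ccl7, Cxcl2 and Cxcl10 kept their sign in every such fit. Under the 10 other settings no sign turned, Ccl5 lay between 0.20 and 0.35 and Ccl12 between 0.05 and 0.12. The median of all genes was -0.003, and it was 0.003 and -0.004 under the other scalings. The rarest member, Cxcl10, rested on 336 to 1285 reads per library.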

Other observations

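Ccl8, a chemokine outside the 10, varied widely between libraries. The controls held 376, 398, 73.1 and 89.5 normalized counts of it, and the cultures without ELMO1 held 942, 175, 105 and 107, in the order of mice 1 to 4. As for Ccl12, every library numbered 1 and 2 lay above every one numbered 3 and 4, which was so for 15.8% of all genes. The means of Ccl8 were 473 and 93.6. Ccr1 lay the other way, as did 18.1% of all genes, with means of 5215 in libraries 1 and 2 and 10440.3 in libraries 3 and 4. The labels do not explain the library numbers, and these differences were not tested.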
